A study of Mus musculus with 6 samples.

Results

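A set of 10 genes that mark macrophages and their polarization were followed in RNA from H22 tumours. They were chosen by name, with earlier results of these data known, out of 21720 genes of the deposited table. Adgre1, Csf1r and Cd68 stand for macrophage identity, Nos2 for the M1-like state, Arg1, Mrc1, Cd163, Chil3 and Retnla for the M2-like state, and Trem2 for lipid-associated macrophages. All 10 passed the filter on low counts and were among the 14963 genes tested.

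Macrophages enter tumours as blood monocytes and survive there through the receptor encoded by Csf1r. In mice, interferon gamma and bacterial products induce Nos2, whose product makes nitric oxide from arginine, while IL-4 and IL-13 act through Stat6 to induce Arg1, Mrc1, Chil3 and Retnla. The products of Nos2 and Arg1 use the same amino acid, and the M1-like and M2-like names describe ends of a range along which macrophages of tumours commonly express genes of both.

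The tumours were subcutaneous grafts of the mouse hepatocellular carcinoma line H22 in wild-type female BALB/c mice aged 6 to 8 weeks. The control group received 0.5% carboxymethyl cellulose sodium and the luteolin group 200 mg/kg luteolin, a plant flavonoid, and both were dosed once a day with 0.2 mL over 21 days from a tumour volume of about 50 mm3. Each group gave 3 libraries of whole-tumour RNA, numbered 1 to 3 as replicates of their group. The study describes 4 mice per group, and the labels do not say whether the libraries came from separate mice, so the p-values measure only the spread between these libraries. Subcutaneous tumours lie under the skin and outside the liver, and whole tissue holds H22 cells, immune cells, vessels and skin together. In such bulk RNA, fewer cells of a type and less RNA per cell cannot be told apart.

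Total estimated counts ranged from 61081637 to 80442954 per library. Values are given as CPM, the part of a gene in its library total after TMM normalization, and as mean ± SD over 3 libraries. Luteolin replicate 2 stood apart, with 448 genes of at least 200 counts that lay more than 8-fold above every other library, against 0 to 5 such genes in each of the other libraries. Its keratinocyte markers summed to 10404 CPM, against 158 to 581 CPM in the other luteolin libraries and 177 to 190 CPM in the control group. The control sums were nearly all Dsp (172 to 186 CPM), while Krt5, Krt14, Krt1, Dsg3 and Krtdap, 5 of the 11 markers, were at 0 in every control library and above 0 in every luteolin library, with 9606, 203754 and 277 counts of Krt14 in luteolin replicates 1, 2 and 3. The part of skin in the values of the macrophage genes was not tested. Values without that library are therefore also given for the markers and for named genes whose call it changes, except for markers of other cell types. The median log2 fold change of all genes tested was -0.0073, and 49.3% of genes lay above 0.

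All 3 identity genes had their lowest luteolin value above their highest control value. Cd68 (log2 fold change 1.16) was the only one of them with an adjusted p under 0.05, and Adgre1 and Csf1r had log2 fold changes of 0.91 and 0.73. Nos2 had the largest difference of the 10 genes, with a mean 12.8-fold that of the control group. The M2-like genes differed among the luteolin libraries by more than the identity genes did, and none of the 5 had an adjusted p under 0.05 by edgeR with all 6 libraries.

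At the threshold used in the study, an unadjusted p under 0.05 with a fold change over 2, 3 of the 10 genes (Cd68, Nos2 and Cd163) were higher in the luteolin group and 0 were lower. Over all genes tested by edgeR's quasi-likelihood test, 11.3% were higher and 1.52% lower at that threshold. With Benjamini-Hochberg adjustment, 2 of the 10 (Cd68 and Nos2) were higher at an adjusted p under 0.05 and 0 were lower, where the shares of all genes were 1.34% and 0.187%. Every luteolin library lay above every control library for 5 of the 10 genes (Adgre1, Csf1r, Cd68, Nos2 and Trem2) and below for 0, against 15.9% and 12.8% of all genes. Without luteolin replicate 2, the study's threshold was passed by 6 of the 10 genes (Cd68, Nos2, Arg1, Mrc1, Cd163 and Chil3) and the adjusted threshold by 3 (Cd68, Nos2 and Arg1), where 7.52% and 1.82% of all genes were higher. Lower at these thresholds were 0 of the 10, against 1.84% and 0.238% of all genes.

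**Figure D1:**
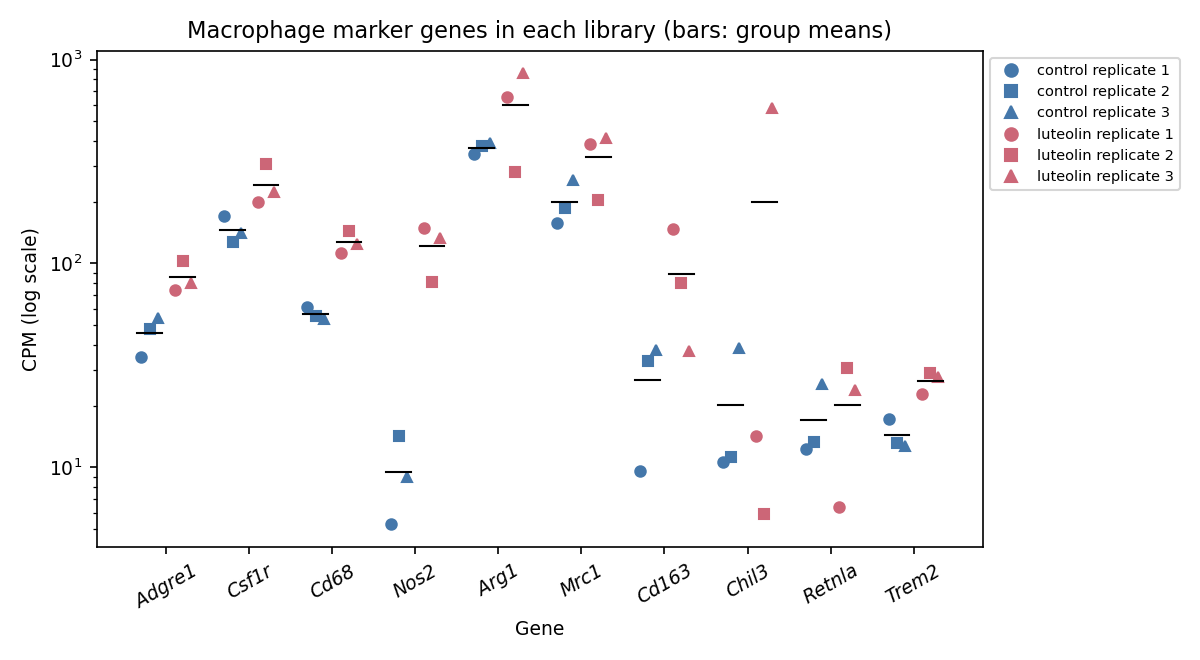
CPM of the 10 marker genes on a log scale, with a point for each of the 6 libraries, control in blue and luteolin in red, and a bar at each group mean. The groups are apart for Adgre1, Csf1r, Cd68, Nos2 and Trem2, and Chil3 in luteolin replicate 3 stands at 580 CPM, far from the other libraries.

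Adgre1 encodes F4/80, a surface receptor used to recognise mouse macrophages. In the order of replicates 1, 2 and 3, as for all values that follow, its CPM was 34.8, 48.0 and 54.1 in the control libraries and 73.8, 102.7 and 80.02 in the luteolin libraries. The groups did not overlap, and luteolin replicate 2 was the highest. Means of 45.6 ± 9.83 CPM for controls and 85.5 ± 15.2 CPM for luteolin gave a log2 fold change of 0.91 (95% interval 0.38 to 1.43). By edgeR's quasi-likelihood test the unadjusted p was 0.00463 and the adjusted p 0.0971 after Benjamini-Hochberg adjustment. Without luteolin replicate 2 the log2 fold change was 0.77.

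Csf1r encodes the receptor for the growth factors CSF1 and IL-34. It stood at 171, 127 and 141 CPM in the control libraries and at 199, 307 and 225 CPM in the luteolin libraries. The lowest luteolin library, replicate 1, was above the highest control library, also replicate 1, by less than the range within either group. Its log2 fold change was 0.73 (95% interval 0.24 to 1.23, edgeR adjusted p = 0.128), and 0.55 without luteolin replicate 2.

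Cd68 encodes a lysosomal glycoprotein of phagocytes. Its CPM was 61.4, 55.4 and 53.7 in the control libraries and 113, 144 and 124 in the luteolin libraries. The control libraries lay close together, and the lowest luteolin library was well above them. Cd68 rose from 56.8 ± 4.08 to 127 ± 15.8 CPM, with a log2 fold change of 1.16 (95% interval 0.79 to 1.52) and an adjusted p of 0.0331 by edgeR's quasi-likelihood test after Benjamini-Hochberg adjustment. Without luteolin replicate 2 these were 1.08 and 0.0308. An offset for GC content lowered the log2 fold change to 0.86, under the study's fold threshold, where the median of all genes was also lower, at -0.24, and the adjusted p was 0.0310.

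Trem2 encodes a lipid-sensing receptor of macrophages that signals through the adaptor Tyrobp. It stood at 17.3, 13.1 and 12.8 CPM in the control libraries and at 22.9, 29.1 and 27.7 CPM in the luteolin libraries. The groups did not overlap, and as for Adgre1, Csf1r and Cd68 the highest luteolin library was replicate 2. The log2 fold change was 0.88 (95% interval 0.38 to 1.39) with an adjusted p of 0.0952 by edgeR's quasi-likelihood test, and 0.83 without luteolin replicate 2. Set against the mean log2 CPM of Adgre1, Csf1r and Cd68 in the same library, Trem2 lay between -2.05 and -2.54 in all 6 libraries, and the group means were -2.33 for controls and -2.37 for luteolin. Trem2 and the identity genes thus kept nearly the same proportion in both groups.

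The 250 bases before the start of Cd68 and of Trem2 are shown because both genes were higher in all 3 luteolin libraries and both are genes of phagocytes. They are RefSeq sequences of the C57BL/6J reference, build GRCm38.p6, at chr11:69666171-69666420 on the minus strand and chr17:48346151-48346400 on the plus strand, and the mice were BALB/c. Capitals mark matches on either strand to the motifs of PU.1 (GAGGAA), the master regulator of the myeloid lineage, AP-1 (TGANTCA) and C/EBP (TTGCNNAA).
Cd68: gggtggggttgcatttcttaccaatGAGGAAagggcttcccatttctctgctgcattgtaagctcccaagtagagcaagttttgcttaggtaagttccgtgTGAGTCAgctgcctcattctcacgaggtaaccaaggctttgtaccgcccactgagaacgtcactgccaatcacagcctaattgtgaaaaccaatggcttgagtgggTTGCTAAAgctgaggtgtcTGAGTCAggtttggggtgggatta
Trem2: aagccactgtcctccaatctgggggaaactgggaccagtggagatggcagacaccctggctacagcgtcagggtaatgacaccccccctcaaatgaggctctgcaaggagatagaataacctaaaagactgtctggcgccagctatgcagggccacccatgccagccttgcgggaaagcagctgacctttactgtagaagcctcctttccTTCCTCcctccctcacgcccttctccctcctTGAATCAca
Cd68 held the PU.1 letters from 225 to 220 bases before the start, the AP-1 letters from 149 to 143 and from 24 to 18, and the C/EBP letters from 43 to 36. Trem2 held the PU.1 letters from 40 to 35 bases before the start and the AP-1 letters from 9 to 3. Of 32851 promoters of the same length, 23.3% held the PU.1 letters, 6.75% the AP-1 letters and 9.56% the C/EBP letters. Of the 10 genes, 6 had a sequence in the table, and the others were Adgre1, Csf1r, Nos2 and Arg1.

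Nos2 encodes the inducible nitric oxide synthase, the usual M1-like marker of mouse macrophages. It had 368, 924 and 581 counts in the control libraries and 9163, 6800 and 8544 counts in the luteolin libraries. In CPM these were 5.27, 14.3 and 9.01 against 150, 81.4 and 134. The groups were far apart, and luteolin replicate 2 was the lowest of its group although it was the highest for the identity genes. Nos2 rose from 9.52 ± 4.52 to 122 ± 35.7 CPM, a log2 fold change of 3.68 (95% interval 2.65 to 4.70) with an adjusted p of 0.0331 by edgeR's quasi-likelihood test after Benjamini-Hochberg adjustment. Its p stood at rank 27 of all genes tested, and without luteolin replicate 2 the log2 fold change was 3.92 with an adjusted p of 0.0170.

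Arg1 encodes arginase 1, which converts arginine to ornithine and urea. Its CPM was 344, 376 and 391 in the control libraries and 660, 280 and 858 in the luteolin libraries. Luteolin replicates 1 and 3 were above the control group, and replicate 2 was below it. The log2 fold change was 0.69 (95% interval -0.19 to 1.57) with an adjusted p of 0.352 by edgeR's quasi-likelihood test after Benjamini-Hochberg adjustment. Without luteolin replicate 2 it was 1.05 with an adjusted p of 0.0317, so that whether Arg1 passed the test depended on that library.

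Mrc1 encodes the mannose receptor CD206, an endocytic receptor of M2-like and tissue macrophages. It stood at 158, 187 and 258 CPM in the control libraries and at 385, 205 and 414 CPM in the luteolin libraries. Here too luteolin replicates 1 and 3 were above the control group, while replicate 2 lay among the control libraries. For Mrc1 the log2 fold change was 0.74 (95% interval 0.0034 to 1.47, edgeR adjusted p = 0.243), and without luteolin replicate 2 it was 1.01 with an adjusted p of 0.0747.

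Cd163 encodes the scavenger receptor that takes up haemoglobin bound to haptoglobin. Its CPM was 9.57, 33.1 and 37.7 in the control libraries and 148, 79.98 and 37.4 in the luteolin libraries. Luteolin replicate 3 lay just under control replicate 3, so the groups overlapped, and control replicate 1 was the lowest. A log2 fold change of 1.72 was obtained (95% interval 0.21 to 3.23), with an unadjusted p of 0.0307 and an adjusted p of 0.196 by edgeR's quasi-likelihood test after Benjamini-Hochberg adjustment. The log2 fold change ran from 1.13 to 2.06 with each library left out in turn, and was 1.81 without luteolin replicate 2. Cd163 no longer passed the study's threshold without control replicate 1, control replicate 2 or luteolin replicate 1, or with the replicate number as a block. It also did not pass with DESeq2 without luteolin replicate 2.

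Chil3 encodes Ym1, a secreted chitinase-like protein of M2-like macrophages that neutrophil precursors also make. It had 741, 725 and 2494 counts in the control libraries and 874, 492 and 37078 counts in the luteolin libraries. Luteolin replicate 3 alone held 96.6% of the CPM of its group and was 15-fold above the next library, while the other two luteolin libraries lay at 14.3 and 5.89 CPM. The log2 fold change was 3.31 (95% interval -0.60 to 7.22) with an adjusted p of 0.317 by edgeR's quasi-likelihood test. It was 3.91 without luteolin replicate 2 and -1.02 without luteolin replicate 3. Without that library the luteolin mean was 10.1 CPM, against 20.2 CPM in the control group. The near-identical copy Chil4 had 0 counts in all 6 libraries, and their longest transcripts agreed at 1452 of 1538 aligned bases (94.4%), so the division of reads between them is uncertain and was not tested.

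Retnla encodes FIZZ1, another secreted protein induced by IL-4. It stood at 12.3, 13.4 and 25.7 CPM in the control libraries and at 6.35, 30.6 and 23.9 CPM in the luteolin libraries. The lowest and the highest of the 6 libraries were both luteolin libraries. Its log2 fold change was 0.24 (95% interval -1.12 to 1.60, edgeR adjusted p = 0.863), and -0.16 without luteolin replicate 2.

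Chil3 and Retnla are both known as targets of IL-4, and the sequences before their starts are shown because their libraries did not follow each other. They are RefSeq sequences of GRCm38.p6 at chr3:106167565-106167814 on the minus strand and chr16:48842359-48842608 on the plus strand. Besides PU.1 and C/EBP, capitals mark the letters TTC and GAA 3 apart (GAS, a STAT site) or 4 apart (the STAT6 type), and GGGA and CC 4 apart (NF-kB), on either strand.
Chil3: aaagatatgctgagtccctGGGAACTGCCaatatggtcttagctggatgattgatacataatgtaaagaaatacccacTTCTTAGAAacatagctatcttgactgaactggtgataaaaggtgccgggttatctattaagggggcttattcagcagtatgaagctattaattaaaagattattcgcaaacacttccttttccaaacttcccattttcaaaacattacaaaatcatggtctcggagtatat
Retnla: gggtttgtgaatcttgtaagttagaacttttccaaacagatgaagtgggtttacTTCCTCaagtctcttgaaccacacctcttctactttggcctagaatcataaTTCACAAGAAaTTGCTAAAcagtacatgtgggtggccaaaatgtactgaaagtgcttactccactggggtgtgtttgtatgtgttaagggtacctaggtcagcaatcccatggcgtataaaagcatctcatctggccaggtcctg
Chil3 held the GAS letters from 172 to 164 bases before the start and the NF-kB letters from 231 to 222. Retnla held the STAT6-type letters from 145 to 136, the C/EBP letters from 134 to 127 and the PU.1 letters from 196 to 191. Among the 32851 promoters, 7.02% held the GAS letters, 5.85% the STAT6-type letters and 17.6% the NF-kB letters. These are matches of letters and were not tested for binding.

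**Figure D2:**
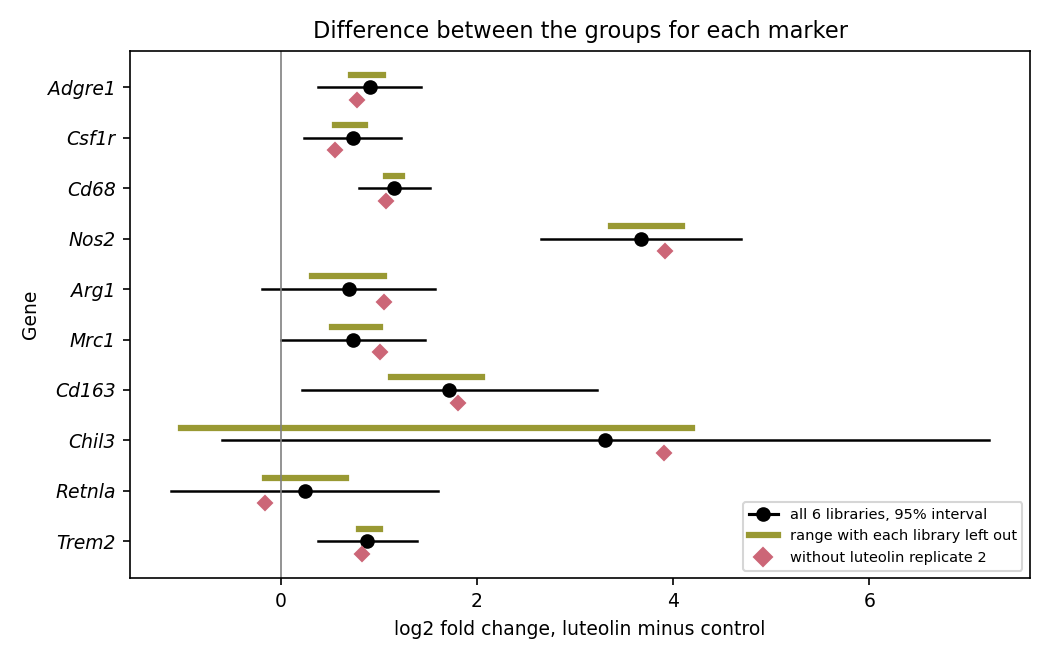
Log2 fold change of each gene, luteolin minus control, with its 95% interval over all 6 libraries (black), its range with each library left out in turn (olive bar) and its value without luteolin replicate 2 (red diamond). The interval lies above 0 for Adgre1, Csf1r, Cd68, Nos2, Mrc1, Cd163 and Trem2 and is widest for Chil3, from -0.60 to 7.22.

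Levels of different genes were compared as mean CPM per kilobase of exon. In the control group the order was Arg1 (166), Cd68 (45.2), Mrc1 (31.5), Retnla (28.6), Csf1r (25.4), Adgre1 (14.1), Chil3 (12.4), Cd163 (4.91), Trem2 (2.91) and Nos2 (2.16). In the luteolin group Arg1 (269) again stood first, followed by Chil3 (123), Cd68 (101), Mrc1 (52.5), Csf1r (42.2), Retnla (33.8), Nos2 (27.6), Adgre1 (26.4), Cd163 (16.2) and Trem2 (5.37). Nos2 was the lowest of the 10 genes in controls and lay beside Adgre1 under luteolin. The place of Chil3 in the luteolin group rested on replicate 3, and that gene could not be ordered there. Neighbours in the order that differed by less than the larger of their SDs among the libraries were Mrc1, Retnla and Csf1r as well as the run of Adgre1, Chil3, Cd163, Trem2 and Nos2 in controls, and Mrc1, Csf1r, Retnla, Nos2 and Adgre1 under luteolin.

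Ratios within a library do not depend on its total. Nos2 minus Arg1, as a difference of log2 CPM, was -6.02, -4.72 and -5.43 in the control libraries and -2.14, -1.78 and -2.68 in the luteolin libraries. Arg1 was thus the higher of the pair in every library, and the gap was smaller in every luteolin library. The group means were -5.39 ± 0.65 and -2.20 ± 0.45. An exact permutation test of 3 libraries against 3 cannot go below p = 0.1.

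Nos2 was also higher against the identity genes. Its log2 CPM minus the mean of Adgre1, Csf1r and Cd68 was -3.76, -2.29 and -3.04 in the control libraries and 0.34, -1.02 and 0.03 in the luteolin libraries, without overlap. The difference between the group means was 2.81. The other polarization genes overlapped between the groups on this scale. Arg1 lay between 2.27 and 2.43 in the control libraries and at 2.48, 0.76 and 2.71 in the luteolin libraries. Mrc1 gave 1.14 to 1.80 in the control libraries and 1.70, 0.31 and 1.66 in the luteolin libraries. Relative to the identity genes, luteolin replicate 2 was thus below every control library for Arg1 and Mrc1, and the other two luteolin libraries were near or within the control range. The difference of group means was -0.38 for Arg1, -0.23 for Mrc1, 0.80 for Cd163 and -0.88 for Retnla. For Chil3 it was 0.21, with the luteolin libraries at -3.05, -4.81 and 2.15. Without luteolin replicate 2 it was 0.23 for both Arg1 and Mrc1, so their direction rested on that library. Spearman correlations of GC content with the deviation of genes from their mean log2 CPM differed by library. They were 0.42, -0.17 and -0.52 in the control libraries and -0.18, 0.43 and -0.36 in the luteolin libraries. GC content was 53.9% for Nos2, 43.4% for Mrc1 and 47.7% for Arg1, against 47.2%, 54.5% and 52.9% for Adgre1, Csf1r and Cd68. The part of GC content in these ratios was not tested.

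**Figure D3:**
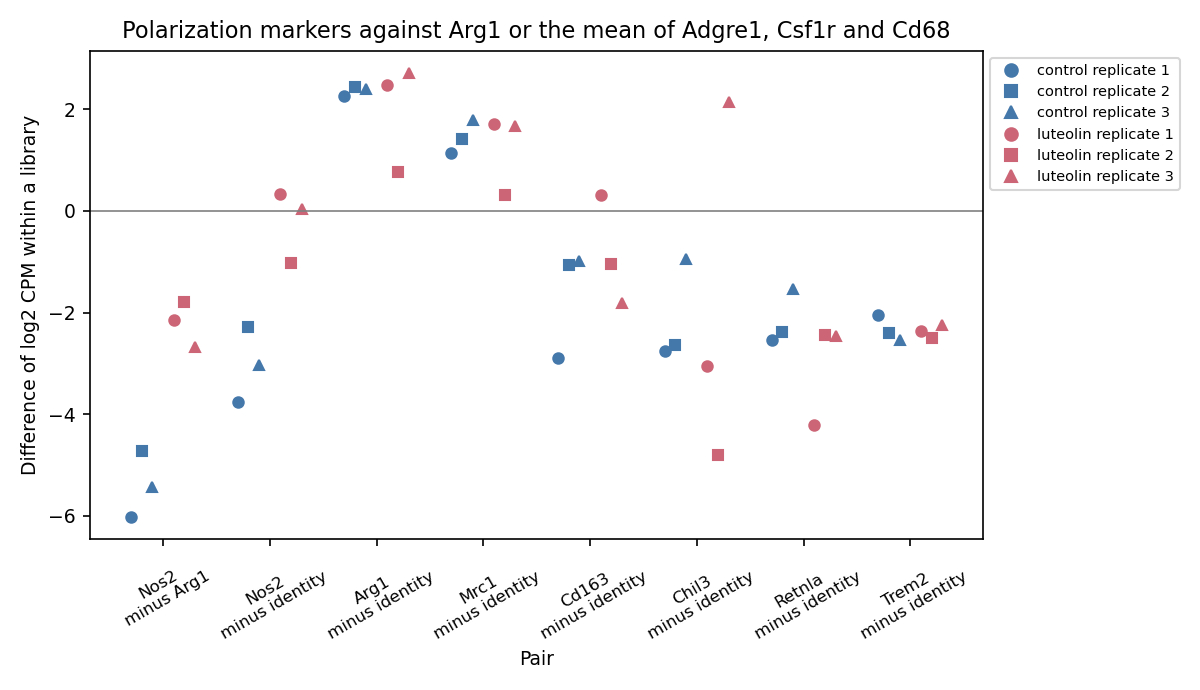
Difference of log2 CPM within each library, for Nos2 minus Arg1 and for each polarization gene minus the mean of Adgre1, Csf1r and Cd68 (identity), with control libraries in blue and luteolin libraries in red. Only the 2 pairs with Nos2 separate the groups, and Trem2 stays between -2.05 and -2.54 in all libraries.

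The luteolin libraries did not rank alike over the 10 genes. Luteolin replicate 2 was the highest of its group for Adgre1, Csf1r, Cd68, Trem2 and Retnla and the lowest for Nos2, Arg1, Mrc1 and Chil3, while Cd163 was highest in replicate 1. The genes most like a marker were taken as those with the smallest root mean square difference of mean-centred log2 CPM over the 6 libraries. For Adgre1 these were Celf2 (0.074), Cpq (0.098), Fuca2 (0.10), Tnfrsf13b (0.10) and Rnf130 (0.11). For Arg1 they were Ccn2, Dusp3, Tfec, Adamts6 and Rhbdd1, from 0.15 to 0.22, and for Mrc1 they were Adamts6, Ccl6, Zeb2, Mitf and Adamts12, from 0.092 to 0.16. Adamts6, which encodes an extracellular protease, was on both lists.

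Further macrophage and monocyte genes were compared in the same fit. For this and the following lists, the shares of all genes higher and lower at the study's threshold were 11.3% and 1.52%. Without luteolin replicate 2 these shares were 7.52% and 1.84%. At an edgeR adjusted p under 0.05 with all 6 libraries they were 1.34% and 0.187%. Of the 20 genes tested, 10 were higher at the study's threshold (9 without luteolin replicate 2) and 0 were lower (1 without it, Cx3cr1), 3 were higher at an adjusted p under 0.05, and the median log2 fold change was 1.01. Sirpa, the receptor for the CD47 signal that restrains phagocytosis, rose from 43.2 ± 2.26 to 93.2 ± 6.24 CPM (log2 fold change 1.11, adjusted p = 0.0331 by edgeR's quasi-likelihood test). Mpeg1, which encodes the pore-forming perforin-2 of phagocytes, rose by 1.15 on the log2 scale (edgeR adjusted p = 0.0332). Plac8, a gene of classical monocytes, stood at 11.5, 21.6 and 11.6 CPM in the control libraries and at 77.0, 107.7 and 44.4 CPM in the luteolin libraries (edgeR adjusted p = 0.0480). Not every gene of the list moved alike. The complement genes C1qa, C1qb and C1qc had log2 fold changes of 0.80, 0.85 and 0.91, under the fold threshold, and Itgam, Lyz2, Ccr2 and F13a1 lay between -0.0013 and 0.26, and these genes were named after their values had been seen.

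Among the growth factors, chemokines and their receptors, 7 of 10 genes were higher at the study's threshold (7 without luteolin replicate 2) and 0 were lower, with a median log2 fold change of 1.14 and 2 genes at an adjusted p under 0.05 (3 without that library). Those 2 were Csf2rb (log2 fold change 1.40, edgeR adjusted p = 0.0331) and Csf2rb2 (1.46, edgeR adjusted p = 0.0437). Csf2rb encodes the common beta chain of the GM-CSF, IL-3 and IL-5 receptors, and Csf2rb2 a beta chain of the IL-3 receptor only. The 2 genes are close copies, and reads could be split between them. Csf3r, the G-CSF receptor of neutrophils, had a log2 fold change of 2.25 (edgeR adjusted p = 0.0643), and 1.71 without luteolin replicate 2 (edgeR adjusted p = 0.0449). Csf1 and Il34 encode the ligands of the receptor encoded by Csf1r. Csf1 stood at 69.7 ± 9.55 CPM among controls and 98.5 ± 4.14 CPM with luteolin (log2 fold change 0.50, edgeR adjusted p = 0.145), and Il34 had a log2 fold change of -0.11. Csf2, the gene of GM-CSF, stood at 0.931 and 2.03 CPM in the group means (log2 fold change 1.12, edgeR adjusted p = 0.260). Every luteolin library lay above every control library, but narrowly, with 1.14 CPM in luteolin replicate 2 and 1.13 CPM in control replicate 2. Without luteolin replicate 2 the log2 fold change was 1.43, past the study's threshold.

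Of the 20 further M1-like genes, 12 were higher at the study's threshold (12 without luteolin replicate 2) and 0 were lower, with a median log2 fold change of 1.76, and 4 were higher at an adjusted p under 0.05 (5 without that library). Il1b, the gene of the inflammatory cytokine IL-1 beta, stood at 14.5, 16.9 and 11.1 CPM in the control libraries and at 165, 122 and 57.5 CPM in the luteolin libraries (log2 fold change 3.02, edgeR adjusted p = 0.0331). Acod1, which makes the metabolite itaconate in activated macrophages, stood at 1.83, 5.73 and 4.68 CPM against 78.9, 40.8 and 39.7 CPM (3.70, edgeR adjusted p = 0.0332). Cd40, the receptor for the helper T-cell signal CD40L, rose by 1.95 on the log2 scale (edgeR adjusted p = 0.0331). Il1b, Acod1 and Cd40 did not overlap between the groups. Irf5, a regulator of inflammatory macrophages, had a log2 fold change of 0.71 (edgeR adjusted p = 0.269). Not every M1-like gene was higher. Il23a lay lower in all 3 luteolin libraries, at 13.5, 8.47 and 16.1 CPM against 17.5, 24.5 and 26.2 CPM (-0.84, edgeR adjusted p = 0.187). Cxcl10 and Irf1 had log2 fold changes of 0.14 and 0.27, and Il23a, Cxcl10 and Irf1 were named after their values had been seen.

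The further M2-like genes went in both directions at the study's threshold. Of the 19 tested out of 20, 9 were higher at the study's threshold (8 without luteolin replicate 2) and 2 were lower, with a median log2 fold change of 1.17, and 2 were higher at an adjusted p under 0.05. Tgm2, which encodes a transglutaminase, rose from 97.7 ± 18.2 to 385 ± 31.8 CPM (log2 fold change 1.98, edgeR adjusted p = 0.0292). Pdcd1lg2, which encodes PD-L2, another ligand of PD-1, rose from 14.0 ± 0.29 to 41.6 ± 15 CPM (1.57, edgeR adjusted p = 0.0480). Il4ra, the receptor chain shared by IL-4 and IL-13, had a log2 fold change of 0.94 (edgeR adjusted p = 0.0776) and Stat6, which acts below it, of -0.22 (edgeR adjusted p = 0.385). The 2 lower genes were Ccl17, a chemokine induced by IL-4, with a log2 fold change of -1.82, and the lectin gene Mgl2, which stood at 77.6, 77.8 and 84.3 CPM in the control libraries and 20.2, 18.1 and 57.8 CPM in the luteolin libraries (-1.32). With all 6 libraries neither had an adjusted p under 0.05 by edgeR (0.157 and 0.172), and both were chosen after their values had been seen. Ccl17 without luteolin replicate 2 had a log2 fold change of -2.51 and an edgeR adjusted p of 0.0482.

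Of the cytokines that induce these states, 6 of 8 could be tested, and 3 were higher at the study's threshold (2 without luteolin replicate 2) and 0 were lower, with a median log2 fold change of 2.66. The counting depth was thin for most. Ifng, the inducer of Nos2, stood at 0.157, 0.618 and 0.202 CPM in the control libraries and at 4.77, 2.98 and 2.52 CPM in the luteolin libraries (log2 fold change 3.39, edgeR adjusted p = 0.0665). Il33, an alarmin, had a log2 fold change of 2.41 (edgeR adjusted p = 0.115). Il4 and Il13, the inducers of the M2-like genes, were under 1 CPM in every library, with log2 fold changes of 0.59 and 2.91 (edgeR adjusted p = 0.772 and 0.220). Il13 did not pass the study's threshold without luteolin replicate 2 (log2 fold change 2.32).

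Around Trem2, 5 of 15 signalling and lipid-associated genes were higher at the study's threshold (4 without luteolin replicate 2) and 0 were lower, with a median log2 fold change of 0.65, and 1 was higher at an adjusted p under 0.05. That gene was Syk, the kinase downstream of Tyrobp, which rose from 37.0 ± 4.4 to 110 ± 34.0 CPM (log2 fold change 1.57, edgeR adjusted p = 0.0403). Tyrobp itself had a log2 fold change of 1.25 (edgeR adjusted p = 0.158), and 0.82 without luteolin replicate 2. Among genes of lipid handling, Fabp5 stood at 24.3, 22.8 and 16.9 CPM against 95.4, 406 and 88.4 CPM (log2 fold change 3.20, edgeR adjusted p = 0.0659). Luteolin replicate 2 was the highest, and without it Fabp5 had a log2 fold change of 2.12 and an edgeR adjusted p of 0.0170. Plin2, which encodes a lipid droplet protein, had a log2 fold change of 0.65 (edgeR adjusted p = 0.0756). Spp1, the osteopontin gene that tumour macrophages and tumour cells express, lay lower in all 3 luteolin libraries, at 977, 1010 and 1676 CPM against 2222, 2210 and 2544 CPM, with a log2 fold change of -0.93 (edgeR adjusted p = 0.101).

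Nos2 and Arg1 draw on arginine, and of 11 further genes of arginine metabolism 3 were higher at the study's threshold (3 without luteolin replicate 2) and 0 were lower, with a median log2 fold change of 0.50. Ass1, which rebuilds arginine from citrulline, the by-product of nitric oxide synthesis, had 264, 324 and 395 counts in the control libraries and 3048, 4562 and 2092 counts in the luteolin libraries. It rose by 3.20 on the log2 scale (edgeR adjusted p = 0.0292), the only gene of this list with an adjusted p under 0.05 with all 6 libraries. Arg2, the mitochondrial arginase, stood at 3.39, 7.15 and 6.34 CPM against 27.9, 15.4 and 21.9 CPM (log2 fold change 1.95, edgeR adjusted p = 0.0598). Arg2 also passed without luteolin replicate 2, with a log2 fold change of 2.17 and an edgeR adjusted p of 0.0351. The arginine transporter gene Slc7a2 was, like Arg1, lowest in luteolin replicate 2 among the luteolin libraries, with 12.4, 52.1 and 34.9 CPM in the control libraries and 115, 41.1 and 342 CPM in the luteolin libraries (2.32, edgeR adjusted p = 0.187). Asl, Odc1 and Oat, named after their values had been seen, lay between -0.066 and -0.040 on the log2 scale.

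**Figure D4:**
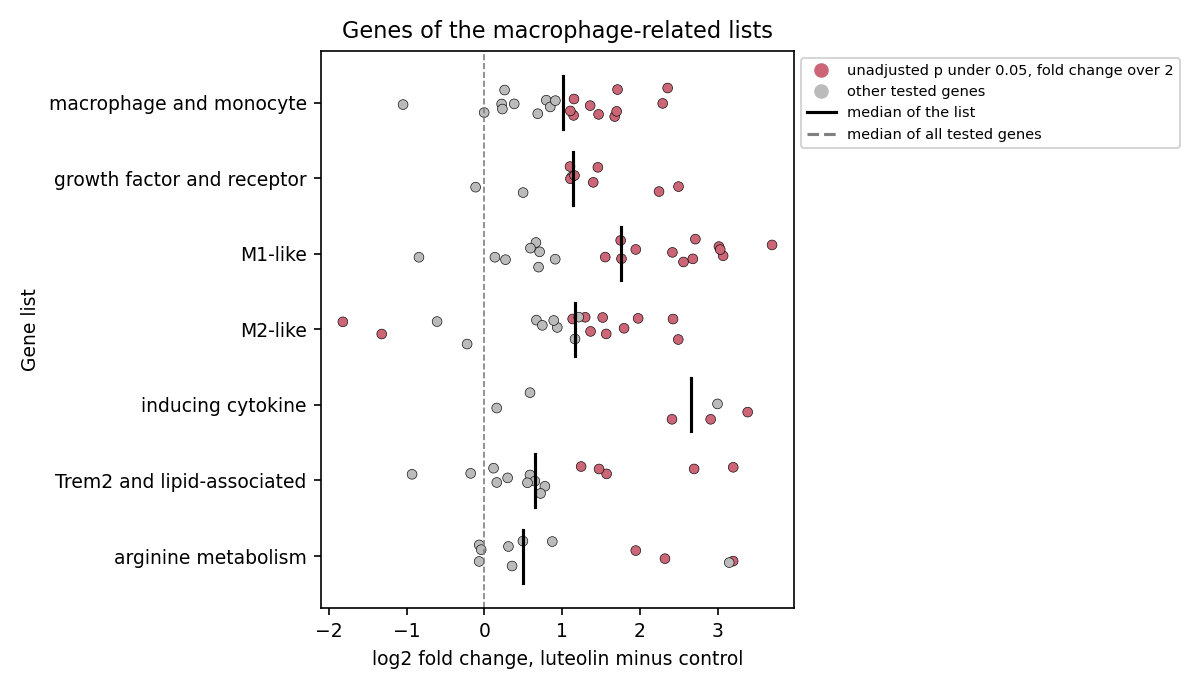
Log2 fold change, luteolin minus control, of each tested gene of the 7 lists, with genes at the study's threshold (unadjusted p under 0.05, fold change over 2) in red, the median of each list as a black line and the median of all tested genes as a dashed line. The list medians run from 0.50 for arginine metabolism to 2.66 for the inducing cytokines, and the M2-like list is the one with red points on both sides.

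Markers of some other cell types moved with the same grouping, and the sums of others overlapped between the groups. The 10 neutrophil markers summed to 46.4 to 52.8 CPM in the control libraries and to 136 to 230 CPM in the luteolin libraries. Of the 8 tested, 5 were higher at the study's threshold, where 11.3% of all genes were higher. Ngp and Camp were at 0 in the control libraries. Ly6g had 13, 36 and 12 counts in the control libraries and 0, 9 and 33 counts in the luteolin libraries (log2 fold change -0.57). Retnlg (0.43) also overlapped between the groups, and Mmp9 (0.80) was under the fold threshold. The T-cell markers summed to 12.7 to 14.7 CPM against 43.3 to 82.9 CPM, with 6 of 6 genes higher. The dendritic-cell markers summed to 123 to 135 CPM against 192 to 288 CPM, with 6 of 8 higher, but without Itgax, which macrophages also express, the sums overlapped, at 44.6, 36.8 and 38.7 CPM against 58.4, 76.9 and 36.1 CPM. Zbtb46, a factor of conventional dendritic cells, had a log2 fold change of -0.33 (edgeR adjusted p = 0.414). Neutrophils can also express Nos2, Arg1, Chil3 and Trem2-pathway genes such as Syk, and dendritic cells Cd68 and Mrc1. The part of these cells in the values of the macrophage genes was not tested.

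Fibroblast markers summed to 1408 to 1575 CPM in the control group and to 4067, 4976 and 2012 CPM in the luteolin libraries. Of the markers of the resident macrophages of the liver, Clec4f and Marco had at most 8 counts in any library, and the 5 genes together summed to 3.3 to 4.3 CPM against 2.7 to 14.8 CPM. Of the 3 tested, 2 were higher at the study's threshold, Timd4 (log2 fold change 1.38) and Cd5l (2.75), against 11.3% of all genes. Cd5l had 24, 28 and 56 counts in the control libraries and 82, 782 and 24 counts in the luteolin libraries. Its groups overlapped, and luteolin replicate 2 was the highest. Vsig4, also tested, had a log2 fold change of -0.38. The eosinophil gene Epx was at 0 in all 6 libraries, which allows up to 3 counts in each, and the list summed to 1.2 to 5.1 CPM. For the hepatocellular label of the H22 cells, Afp stood at 59.4, 66.7 and 43.4 CPM in the control libraries and at 32.7, 41.8 and 38.8 CPM in the luteolin libraries, all below the controls (log2 fold change -0.58, edgeR adjusted p = 0.187). Alb ranged from 56 to 8118 counts and did not follow the groups. Gpc3, on the same list, went the other way from Afp (log2 fold change 2.73, edgeR adjusted p = 0.0665). It stood at 1.19, 0.633 and 1.30 CPM in the control libraries and at 8.24, 9.34 and 3.13 CPM in the luteolin libraries.

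**Figure D5:**
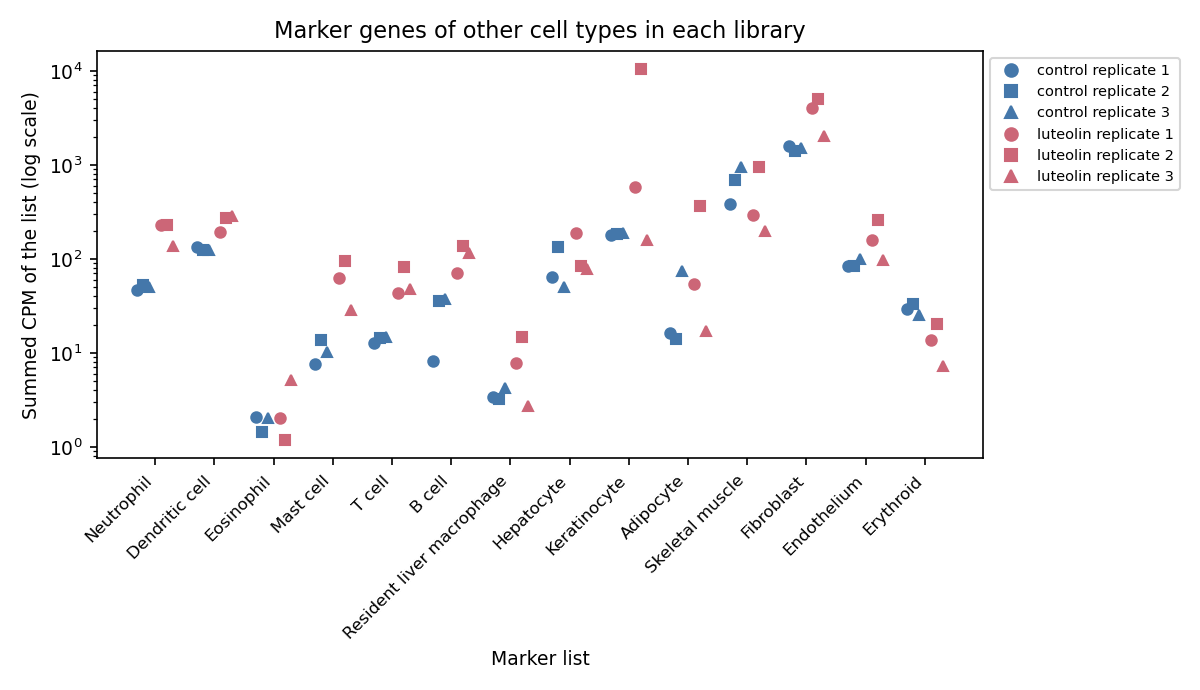
Summed CPM of 14 lists of marker genes of other cell types in each library, on a log scale, with control libraries in blue and luteolin libraries in red. Neutrophil, dendritic-cell, mast-cell, T-cell, B-cell and fibroblast markers are higher in all 3 luteolin libraries, and erythroid markers are lower. The other sums overlap between the groups, and the keratinocyte sum of luteolin replicate 2 stands at 10404 CPM.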

How the data were processed

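RNA-seq libraries of H22 tumours were compared between the control and the luteolin group, 3 libraries each. The authors deposited whole numbers per gene symbol and library, not scaled between libraries, which were analysed as estimated counts. Among low values (1 to 40) 44.8% were multiples of 4, so 1 unit need not be 1 read pair. The submitters' processing notes name bcl2fastq 2.0, HISAT2, StringTie and DESeq2, and the builds mm39 and rn6 without their role. The paper and the labels name different extraction and library kits. Strand of counting is not given in the sources used here. All 6 columns of the table were used.

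Counts were tested with edgeR 4.0.16 under R 4.3.3 (filterByExpr, TMM normalization, two-sided quasi-likelihood test, no covariates) over all 14963 genes left, with Benjamini-Hochberg adjustment over them. Log2 CPM used a prior count of 2. Intervals and limits of a count of 0 (3 counts, or 12 where 1 read pair counts as 4 units) cover the spread between these libraries or counting error only. Gene lengths were the union of exons in GENCODE M21. A self-check of the fit was run on simulated data. Genes named were the 10 markers, the 3 genes of smallest p in each list and a set of partner genes, and others are values of a list given as a range. Of the partner genes, 1 is left out of the text. The markers and lists were chosen with earlier results of these data known. The alternatives were DESeq2 1.42.0, voom with sample quality weights in limma 3.58.1, other normalizations and filters, a replicate block, values divided by 4, libraries thinned to the smallest total, GC content offsets, each library left out and, added after the data had been seen, DESeq2 without luteolin replicate 2.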

Additional observations from a re-analysis of the deposited data

How the results depend on the processing

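Nos2 stayed higher under all 17 alternatives run (log2 fold change 3.37 to 4.09), as did Cd68 (0.86 to 1.24), Adgre1 (0.70 to 1.04), Csf1r (0.40 to 0.86), Trem2 (0.62 to 1.01), Arg1 (0.32 to 1.05), Mrc1 (0.53 to 1.01) and Cd163 (1.13 to 2.06). With each library left out, Chil3 ran from -1.02 (without luteolin replicate 3) to 4.20 and Retnla from -0.16 (without luteolin replicate 2, by edgeR and by DESeq2) to 0.67, and Retnla was -0.65 with voom. DESeq2 gave Chil3 no p with all 6 libraries.

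The number of markers higher at the study's threshold, 3, ran from 2 to 6 with each library left out, the 6 without luteolin replicate 2, and was 5 with DESeq2 without that library. The number lower was 0 in each. The number at an adjusted p under 0.05, 2, was 6 with DESeq2 (Adgre1, Csf1r, Cd163 and Trem2 besides Cd68 and Nos2), 8 with voom (Arg1 and Mrc1 as well), 6 with DESeq2 without luteolin replicate 2, and 0 to 3 with each library left out. It was 0 without any 1 of the control libraries or luteolin replicate 1, where 0 of all genes tested by edgeR passed, and 1 without luteolin replicate 3. Over all genes DESeq2 called 1543 higher and 415 lower and voom 1886 and 1311, against 200 and 28 by edgeR, 345 and 47 with at least 10 counts in every library, 327 and 46 for values divided by 4, and 532 and 270 with GC content offsets. These offsets also changed the study-threshold split from 1687 and 227 to 1385 and 469, and voom to 1752 and 498. Without luteolin replicate 2 that split was 1139 and 278 of 15137 genes by edgeR, the fewest higher with any library left out. The most were 2104 higher, with 305 lower, of 15512 genes without luteolin replicate 3. DESeq2 without luteolin replicate 2 called 1311 higher and 374 lower of 17395 genes at the study's threshold. At an adjusted p under 0.05 it called 1076 and 396. The cause of these differences was not tested.

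The deviations from the group mean of same-numbered libraries correlated at -0.20, -0.092 and 0.063, and those of different-numbered libraries from -0.12 to 0.20. As the deviations of the 3 libraries of a group sum to 0, these values cannot decide whether the libraries were paired. With the replicate block, 0 markers had an adjusted p under 0.05 (edgeR 0.0737 for Nos2 and 0.0881 for Cd68), and 34 genes in all were higher and 1 lower.

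Genes higher at the study's threshold with each library left out numbered 9 to 13 on the macrophage and monocyte list, 5 to 7 on the growth factor list, 10 to 12 on the M1-like list, 6 to 11 on the M2-like list, 2 to 3 among cytokines, 4 to 5 on the Trem2 list (3 with voom) and 2 to 4 on the arginine list (5 with voom).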

Other observations

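Chil3 was 1 of 5 genes of at least 200 counts that lay more than 8-fold above every other library in luteolin replicate 3, and the genes named here were chosen after their values had been seen. The others were Commd1b, Gm49369, and Ngp and Ltf, which encode proteins of neutrophil granules. Ngp had 544 counts in luteolin replicate 3, 4 and 0 counts in luteolin replicates 1 and 2 and 0 counts in the control libraries. Ltf, the lactoferrin gene, had 292 counts there, 22 and 16 counts in luteolin replicates 1 and 2 and 0 counts in the control libraries. Camp, the cathelicidin gene of the same granules, had 100 counts there, 0 and 7 in luteolin replicates 1 and 2 and 0 in the control libraries. S100a8 and S100a9, genes of mature neutrophils and monocytes, did not follow that order, with 714, 377 and 459 counts of S100a8 and 4898, 2771 and 1729 counts of S100a9 in luteolin replicates 1, 2 and 3. The part of such cells in the Chil3 value was not tested.

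Among the monocyte genes, Cx3cr1 went the other way from most of its list, at 15.2, 8.05 and 10.0 CPM in the control libraries and 2.92, 9.41 and 3.82 CPM in the luteolin libraries. Its log2 fold change was -1.04 (edgeR adjusted p = 0.307), and -1.71 without luteolin replicate 2 (edgeR adjusted p = 0.0755).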
